A study of Homo sapiens with 6 samples.

Results

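Squamous lineage transcription factors set the identity of stratified epithelium and drive its differentiation. The 9 examined here were the rows of the count table named TP63, SOX2, PITX1, KLF4, KLF5, TFAP2A, TFAP2C, GRHL3 and ZNF750, out of 21776 genes in the table. RNA sequencing had compared the human oral squamous cell carcinoma line SCC25, labelled as wild type, kept for 12 h under hypoxia (1% O2) with the same line kept for 12 h under normoxia in air with CO2, and each condition had 3 libraries. All 6 libraries came from this 1 line, grown in DMEM/F12 with fetal bovine serum, and nothing in the labels says whether the replicates were separate cultures. The p-values therefore measure the spread between these libraries, which may be technical.

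In stratified epithelium, p63, encoded by TP63, keeps the basal layer proliferating and opens the epithelial programme. The AP-2 factors (TFAP2A, TFAP2C) and KLF5 act beside it in basal cells, and PITX1 and SOX2 are homeodomain and HMG-box factors that accompany p63 in squamous carcinomas. KLF4, GRHL3 and ZNF750 act later, when cells leave the basal layer and build the barrier, and ZNF750 is itself switched on by p63. In hypoxia, the HIF factors bind DNA at a short core, RCGTG in which R is A or G, near the genes they switch on.

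Sequencing gave 30186813, 36076088 and 32272716 counted reads for the hypoxia libraries (replicates 1 to 3) and 37278703, 29637189 and 29981208 for the normoxia libraries. Values per library are given in the order of the replicate numbers throughout. At these depths a count of 0 in a library allows up to 3 counts, which is 0.0806 to 0.105 CPM (the usual normalized count, scaled to the library total after TMM normalization) depending on the library. Such limits cover counting error only. Over the genes tested, normoxia replicate 3 lay closer to the hypoxia libraries (root mean square difference of log2 CPM 1.07 to 1.14) than normoxia replicates 1 and 2 did (1.21 to 1.32). Libraries of the same condition differed by 0.308 to 0.438. The hypoxia response genes EGLN3, NDRG1, VEGFA, CA9 and PDK1 all rose, with log2-fold changes of 6.69, 5.40, 2.80, 2.71 and 1.80 by edgeR's quasi-likelihood test.

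The label of a squamous line was set beside marker genes. KRT5, a keratin of basal cells, stood at 111 CPM under hypoxia and 126 CPM under normoxia, but KRT14, its usual partner, had at most 1 count in any library. Of the 12 squamous markers, 8 rose and 3 fell under hypoxia, beside 39.2% and 38.5% of all genes tested, and their summed level was 1681, 1713 and 1732 CPM in the hypoxia libraries against 1037, 1047 and 1205 CPM in the normoxia libraries. KRT5 was among the 3 that fell (log2-fold change -0.18, edgeR adjusted p = 0.013). It did not pass with at least 10 counts in every library or without hypoxia replicate 2 (edgeR adjusted p = 0.127 and 0.0624). CDH3 had the highest CPM of the 12 under hypoxia (491) and S100A2 under normoxia (386). Simple-epithelial keratins were abundant, with KRT8 at 1383 CPM under hypoxia and 1723 CPM under normoxia. The simple-epithelial markers, 7 of 8 in the table, summed to 3290, 3123 and 3283 CPM under hypoxia and 3746, 3912 and 3475 CPM under normoxia, and 3 rose and 3 fell under hypoxia. KRT19, among the 3 that rose, passed the filter on low counts only through its hypoxia libraries (8, 15 and 27 reads in the normoxia libraries). Fibroblast markers reached 17.4 to 22.1 CPM under hypoxia and 3.18 to 5.64 CPM under normoxia, almost all of it COL1A1, and 5 of the 8 had at most 10 counts in every library. Endothelial markers summed to 1.32 to 1.703 CPM under hypoxia and 0.296 to 0.744 CPM under normoxia, most of it CDH5. Immune markers summed to 33.0 to 39.6 CPM, mostly CD68, and CD14 rose from 1.07 to 5.83 CPM (log2-fold change 2.45, edgeR adjusted p = 7.27e-08). PTPRC, the pan-leukocyte marker, averaged 0.0205 CPM under hypoxia and 0 under normoxia. What these markers contribute to the changes described here was not tested.

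RefSeq promoter entries (GRCh38.p14) were found for 7 of the 9 factors, in 10 windows of 250 bases before an annotated start, matched by symbol. TFAP2C and ZNF750 had none. The windows below are 100 bases each, shown for factors whose RNA passed the test of the difference and which have an entry. The KLF4 window is the one around its match to the HIF core, and the others end at the base before the start. They are written 5' to 3' on the strand of the gene, and capitals mark the letters that match ACGTG or GCGTG on either strand.
KLF4, chr9:107489875-107489974, minus strand: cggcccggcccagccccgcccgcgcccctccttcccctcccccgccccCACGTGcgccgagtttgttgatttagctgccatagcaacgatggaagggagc
KLF5, upstream start, chr13:73054876-73054975, plus strand: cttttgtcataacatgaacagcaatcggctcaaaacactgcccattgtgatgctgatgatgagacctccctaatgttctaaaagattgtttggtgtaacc
KLF5, downstream start, chr13:73058905-73059004, plus strand: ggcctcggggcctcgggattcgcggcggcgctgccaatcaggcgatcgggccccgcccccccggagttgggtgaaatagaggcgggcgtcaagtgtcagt
PITX1, chr5:135034229-135034328, minus strand: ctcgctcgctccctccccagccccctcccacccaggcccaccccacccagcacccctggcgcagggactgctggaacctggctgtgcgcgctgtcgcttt
TFAP2A, downstream start, chr6:10412392-10412491, minus strand: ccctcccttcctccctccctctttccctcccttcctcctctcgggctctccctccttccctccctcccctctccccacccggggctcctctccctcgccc
TFAP2A, upstream start, chr6:10419660-10419759, minus strand: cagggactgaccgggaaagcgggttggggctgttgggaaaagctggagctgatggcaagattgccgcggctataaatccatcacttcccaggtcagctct
The KLF4 window holds 2 matches that overlap, since the run in capitals reads ACGTG on both strands, and the first begins 157 bases before the start. Besides KLF4, only GRHL3 had a match among these factors, 195 bases before the second of its starts. Of all 35116 RefSeq promoter windows of that length, 43.2% hold ACGTG or GCGTG. The AP-2 palindrome GCCNNNGGC was found in 3 windows, 10 bases before the KLF4 start, 131 before the SOX2 start and 50 before the second GRHL3 start, and in 19.8% of all windows. The grainyhead palindrome AACCGGTT was in none of the 10 windows, and in 0.117% of all windows. These matches describe letters only, and say nothing of binding in these cells.

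Of the 9 factors, 7 had enough reads for the test, in which edgeR's quasi-likelihood fit covered 14255 genes with p-values adjusted over all of them. Under hypoxia 2 rose (ZNF750 and TFAP2A), 4 fell (PITX1, KLF5, TFAP2C and KLF4) and TP63 was not called, where a call is an adjusted p under 0.05. ZNF750 passed the filter on low counts only through its hypoxia libraries, and with a minimum of 10 counts in each library it was not tested and 1 factor was called higher. The background was wide, since 77.8% of all genes tested passed, 39.2% as higher and 38.5% as lower. For 6 of the 7 factors no library of one condition reached the range of the other, as for 80.5% of all genes tested. The 7 factors had a median log2-fold change of -0.39, and the whole set of tested genes one of 0.02. Exact two-sided permutation tests of CPM for single factors cannot go below p = 0.1 with 3 libraries against 3. The exact permutation test gave p = 0.1 for GRHL3 and each of the 6 called factors and p = 0.6 for TP63.

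**Figure D1:**
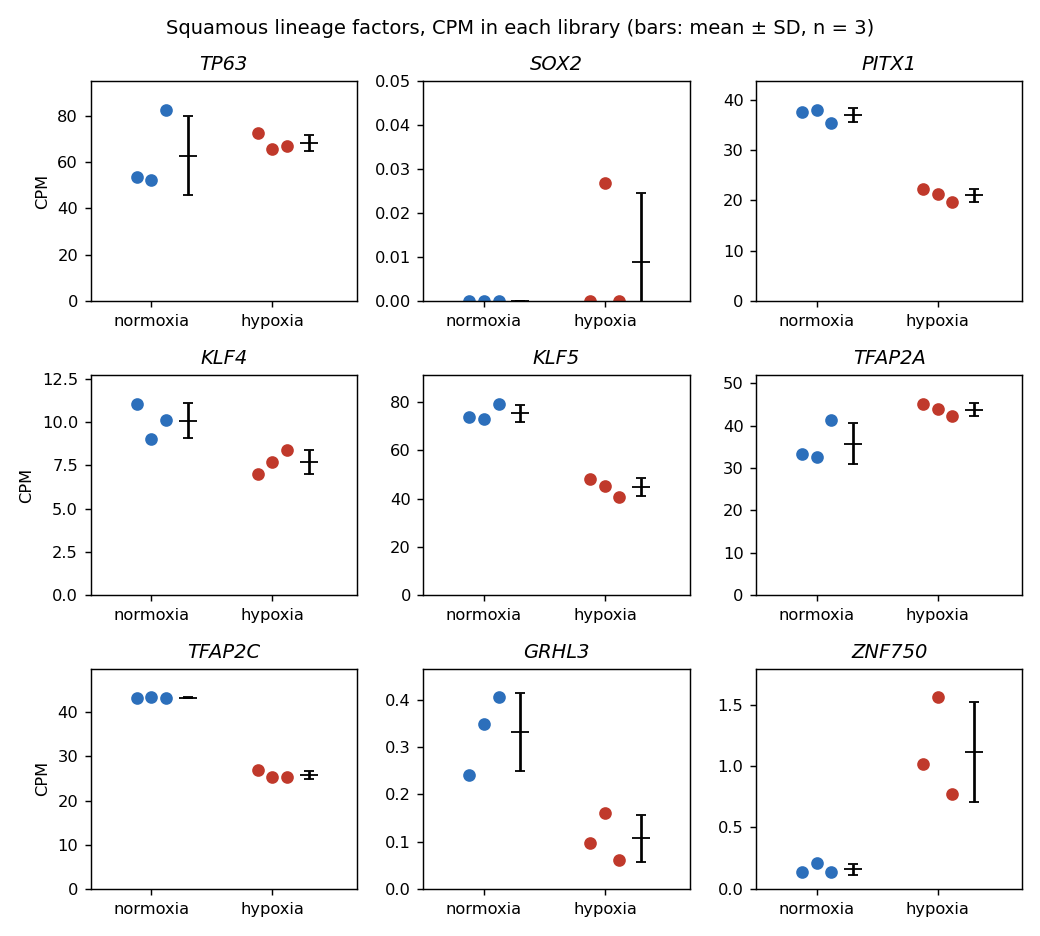
CPM of the 9 squamous lineage factors, 1 panel per gene, each on a linear axis from 0, with 1 point per library and the mean with SD (n = 3) beside the points. PITX1, KLF5, TFAP2C and KLF4 are lower in each hypoxia library than in each normoxia library, TFAP2A and ZNF750 are higher, TP63 overlaps because normoxia replicate 3 stands at 82.5 CPM, and SOX2 has a single read.

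TP63, the regulator of basal identity, was counted 2208, 2442 and 2167 times in the 3 hypoxia libraries and 1984, 1499 and 2440 times in the 3 normoxia libraries. Scaled to the library totals this was 72.3, 65.7 and 66.8 CPM under hypoxia and 53.3, 52.4 and 82.5 CPM under normoxia. Normoxia replicates 1 and 2 lay below all 3 hypoxia libraries, whereas normoxia replicate 3 lay above them. The means were 68.3 ± 3.56 and 62.7 ± 17.1 CPM (SD, n = 3 each). The log2-fold change was 0.12 (standard error 0.12, edgeR adjusted p = 0.358), and 89.2% of the genes tested had a larger change in size. Without normoxia replicate 3, which is also the library nearest to the hypoxia libraries, the log2-fold change was 0.35 (edgeR adjusted p = 7.55e-06). Without normoxia replicate 1 or 2 it was 0.0034 or 0.0036 (edgeR adjusted p = 0.981 and 0.978). Annotation GENCODE v29 lists 14 transcripts of TP63 from 8 starts. Counts per gene cannot tell its long (TA) forms from the short (deltaN) forms that prevail in squamous cells.

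SOX2, a pluripotency factor often gained in squamous carcinoma, had 1 read in hypoxia replicate 2 and 0 in the other 5 libraries. It was not detectable at this depth in either condition, and no fold change can be given. SOX2-OT, the long noncoding RNA that spans it, was listed with a mean of 0.0109 CPM under hypoxia and 0 under normoxia.

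PITX1, a homeodomain factor of oral ectoderm and of the hindlimb, fell. It stood at 22.2, 21.3 and 19.6 CPM in the hypoxia libraries and at 37.57, 37.99 and 35.4 CPM in the normoxia libraries. The 2 ranges were far apart, and each normoxia library held more PITX1 than any hypoxia library. Its level was 1.76-fold higher under normoxia. The log2-fold change was -0.82 (standard error 0.08, edgeR adjusted p = 2.25e-08). Leaving out any 1 library gave -0.86 to -0.77. Its antisense neighbour PITX1-AS1 rose from 0.700 to 1.75 CPM, a log2-fold change of 1.32 (edgeR adjusted p = 0.00108). GENCODE v29 has PITX1 share 293 bases of exon with a gene on the opposite strand, AC008406.3, which is not in the table.

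KLF5, a zinc finger factor of proliferating basal cells, fell as well. Its values were 48.3, 45.3 and 40.8 CPM in the hypoxia libraries and 73.7, 73.0 and 79.3 CPM in the normoxia libraries. No hypoxia library came near the lowest normoxia library. The log2-fold change was -0.75 (standard error 0.07, edgeR adjusted p = 1.5e-08). KLF4, its paralog in the suprabasal layers, was lower by less, at 7.01, 7.69 and 8.38 CPM in the hypoxia libraries and 11.1, 9.05 and 10.1 CPM in the normoxia libraries. The gap between the highest hypoxia library and the lowest normoxia library was small. The KLF4 log2-fold change was -0.39 (standard error 0.12, edgeR adjusted p = 0.00883), and 66.8% of the genes tested had a larger change. In limma on log2(FPKM + 1) without a filter the call was lost (-0.25 on that scale, adjusted p = 0.0584). It rests on 214 to 412 reads per library.

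The AP-2 paralogs moved in opposite directions. TFAP2A was at 45.2, 44.0 and 42.2 CPM in the hypoxia libraries and at 33.2, 32.7 and 41.3 CPM in the normoxia libraries. As for TP63, normoxia replicate 3 was the highest normoxia library, here just below the lowest hypoxia library. The log2-fold change of TFAP2A was 0.29 (standard error 0.08, edgeR adjusted p = 0.00344), and without normoxia replicate 3 it was 0.39. TFAP2C was at 27.0, 25.3 and 25.3 CPM in the hypoxia libraries and at 43.2, 43.4 and 43.2 CPM in the normoxia libraries. The normoxia libraries were almost equal (SD 0.108 CPM, n = 3), and none of the hypoxia libraries came near them. The log2-fold change of TFAP2C was -0.74 (standard error 0.07, edgeR adjusted p = 1.39e-08). TFAP2A shares 438 exon bases with TFAP2A-AS1 and 941 with TFAP2A-AS2, both on the opposite strand in GENCODE v29. TFAP2A-AS2 rose from 0.500 to 1.28 CPM (log2-fold change 1.35, edgeR adjusted p = 0.00418), while TFAP2A-AS1 was at 0.481 and 0.717 CPM (edgeR adjusted p = 0.199). Whether the counting used the strand is not given in the sources used here, so reads of a gene and its antisense partner cannot be told apart.

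Of the late differentiation factors, ZNF750 was tested only because its hypoxia reads took it past the filter on low counts, whereas GRHL3 did not pass. It had 31, 58 and 25 reads in the 3 hypoxia libraries and 5, 6 and 4 reads in the 3 normoxia libraries. Its levels were 1.02, 1.56 and 0.770 CPM against 0.134, 0.210 and 0.135 CPM. Every hypoxia library was above every normoxia library, although both conditions were low. The fitted fold was 6.97, a log2-fold change of 2.80 (standard error 0.47, edgeR adjusted p = 3.77e-05), and 4.51% of the genes tested changed more. ZNF750 is encoded inside TBCD, a tubulin chaperone, which stood at 95.4 and 99.0 CPM (log2-fold change -0.05, edgeR adjusted p = 0.357). GRHL3, a grainyhead factor of barrier formation and wound closure, had 3, 6 and 2 reads in the 3 hypoxia libraries and 9, 10 and 12 in the 3 normoxia libraries. The groups did not overlap, but the gene did not reach the filter. In a fit without the filter, its log2-fold change was -1.61 (standard error 0.80, edgeR adjusted p = 0.0785).

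**Figure D2:**
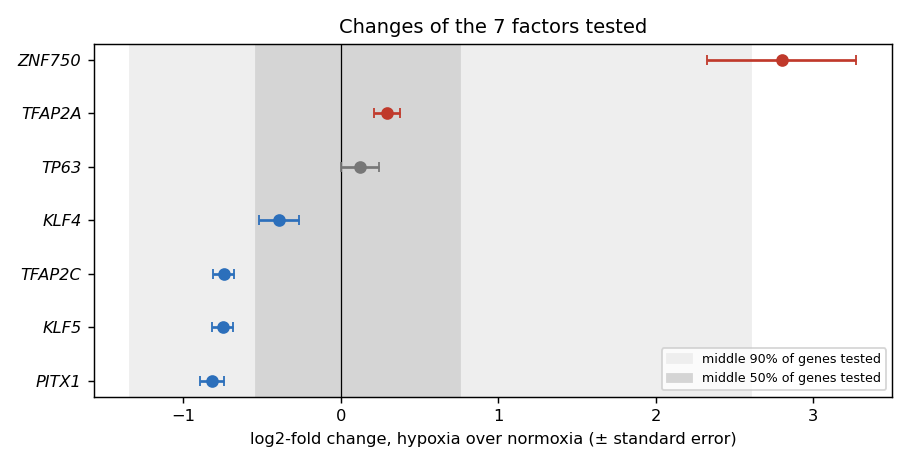
Log2-fold change of hypoxia over normoxia for the 7 factors tested, with the standard error as bars, in red where higher, blue where lower and grey where the adjusted p was not under 0.05. The shaded bands are the middle 50% (-0.54 to 0.76) and the middle 90% (-1.33 to 2.61) of all genes tested, and ZNF750 at 2.80 is the factor outside the wider band.

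Levels of different genes were compared per length, as the deposited FPKM (fragments counted per kilobase of gene length, relative to the library total). Under normoxia KLF5 was the highest at 21.0 ± 1.11 FPKM (SD, n = 3). PITX1 (15.6 ± 0.556 FPKM) and TFAP2C (14.9 ± 0.221 FPKM) followed with overlapping libraries, as did TP63 (8.74 ± 2.42 FPKM) and TFAP2A (8.36 ± 1.17 FPKM) below them. KLF4 was at 3.27 ± 0.381 FPKM, and GRHL3 (0.0922 FPKM), ZNF750 (0.0496 FPKM) and SOX2 (0 FPKM) came last. Under hypoxia KLF5 was again first, at 12.9 ± 1.14 FPKM. The next 4 factors, TFAP2A at 10.6, TP63 at 9.82, TFAP2C at 9.17 and PITX1 at 9.14 FPKM, overlapped each with the next. KLF4 followed at 2.57 ± 0.223 FPKM, then ZNF750 at 0.360 FPKM and GRHL3 at 0.0308 FPKM. ZNF750 thus stood below GRHL3 in normoxia and above it in hypoxia, without overlap in either condition. The normoxia order rests on 5, 6 and 4 reads of ZNF750 against 9, 10 and 12 of GRHL3. Its gap was small, from 0.0641 FPKM in the highest ZNF750 library to 0.0682 FPKM in the lowest GRHL3 library.

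**Figure D3:**
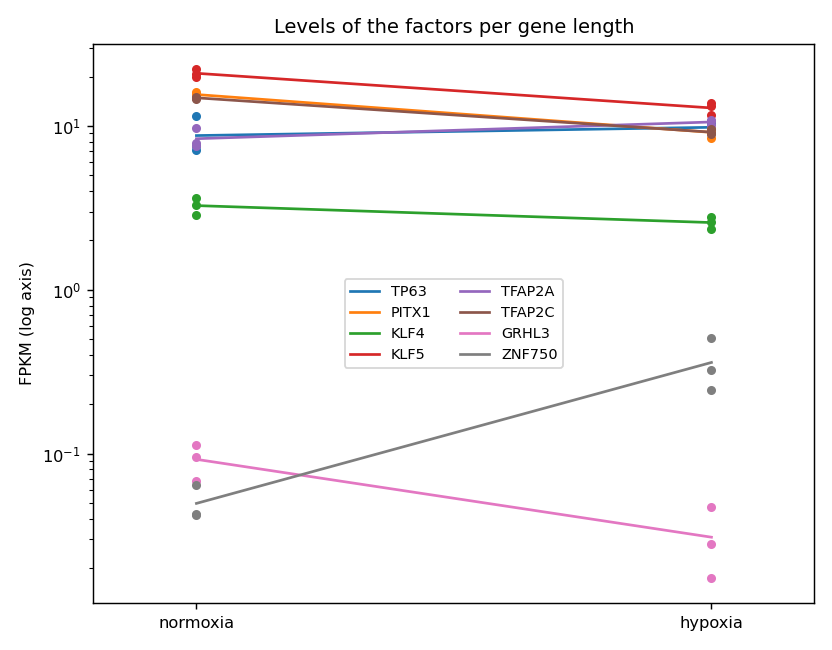
FPKM of the factors on a log axis, with 1 point per library and lines joining the condition means, SOX2 left out because it is listed at 0 in 5 libraries. The spread of the 5 factors above 5 FPKM narrows from 8.36 to 21.0 FPKM under normoxia to 9.14 to 12.9 FPKM under hypoxia.

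The ratio of TFAP2A to TFAP2C by FPKM was 1.14, 1.18 and 1.14 in the hypoxia libraries and 0.523, 0.513 and 0.652 in the normoxia libraries. TFAP2A was the more abundant paralog in each hypoxia library and TFAP2C in each normoxia library. The exact two-sided permutation test gave p = 0.1, the smallest that 3 libraries against 3 allow. The summed FPKM of the AP-2 genes was 19.9 ± 0.734 under hypoxia and 23.6 ± 1.18 under normoxia (SD, n = 3, exact permutation p = 0.1). KLF5 exceeded KLF4 5.92, 5.07 and 4.19 times in the hypoxia libraries and 5.72, 6.94 and 6.75 times in the normoxia libraries. These ranges overlapped (exact permutation p = 0.2).

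The relatives of the 9 factors were listed by family, 28 genes of which 25 were in the table and 22 were tested. Under hypoxia 12 rose, 6 fell and 4 did not pass, with a median log2-fold change of 0.19, beside 77.8% called among all genes tested. Among the KLF genes other than KLF4 and KLF5, 7 of 11 rose and 2 fell, where 39.2% of all genes tested rose and 38.5% fell. KLF8 rose from 0.716 to 8.16 CPM (log2-fold change 3.50), KLF9 by 2.58 and KLF7 by 1.37 on the log2 scale, while KLF16 fell by 0.73 and KLF2 by 1.09. Without normoxia replicate 3 the call of KLF2 was lost (log2-fold change -0.89, edgeR adjusted p = 0.075). KLF5 held 19.0 ± 0.530% of the FPKM of the 14 KLF genes under normoxia and 10.9 ± 1.29% under hypoxia (SD, n = 3), and KLF10, the most abundant of them, 31.6 and 41.2%. The summed KLF level was 118 ± 5.40 FPKM under hypoxia and 111 ± 3.07 FPKM under normoxia (exact permutation p = 0.2).

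In the grainyhead family, to which GRHL3 belongs, GRHL1 rose from 13.9, 13.7 and 15.5 CPM in the normoxia libraries to 53.3, 64.1 and 62.7 CPM in the hypoxia libraries. No 2 libraries of different conditions came close. The log2-fold change was 2.06 (standard error 0.08, edgeR adjusted p = 7e-13). GRHL2, the member of simple and stratified epithelia, fell by 0.53 on the log2 scale (edgeR adjusted p = 2.71e-07). GRHL1 made up 72.9 ± 1.45% of the family's FPKM under hypoxia and 30.7 ± 0.855% under normoxia (SD, n = 3), and GRHL3 0.142 and 0.772%. The summed family level was 21.6 ± 1.84 and 11.9 ± 0.633 FPKM (exact permutation p = 0.1).

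SOX15, the most abundant SOX gene measured, held 41.3% of the FPKM of the 7 SOX genes under hypoxia and 47.99% under normoxia. SOX15 did not pass (log2-fold change -0.13, edgeR adjusted p = 0.0639). SOX4 and SOX12 rose by 1.88 and 1.10 on the log2 scale, SOX13 by 0.22, a call that was lost under several alternatives (adjusted p of up to 0.197 in edgeR without normoxia replicate 1), and SOX9 and SOX7 both fell by 0.41. TP73, a relative of TP63, was at 20.1 and 20.2 CPM (edgeR adjusted p = 0.937). TFAP2E, a minor AP-2 gene, fell by 1.23 on the log2 scale. PITX3 and KLF15 were below the filter.

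**Figure D4:**
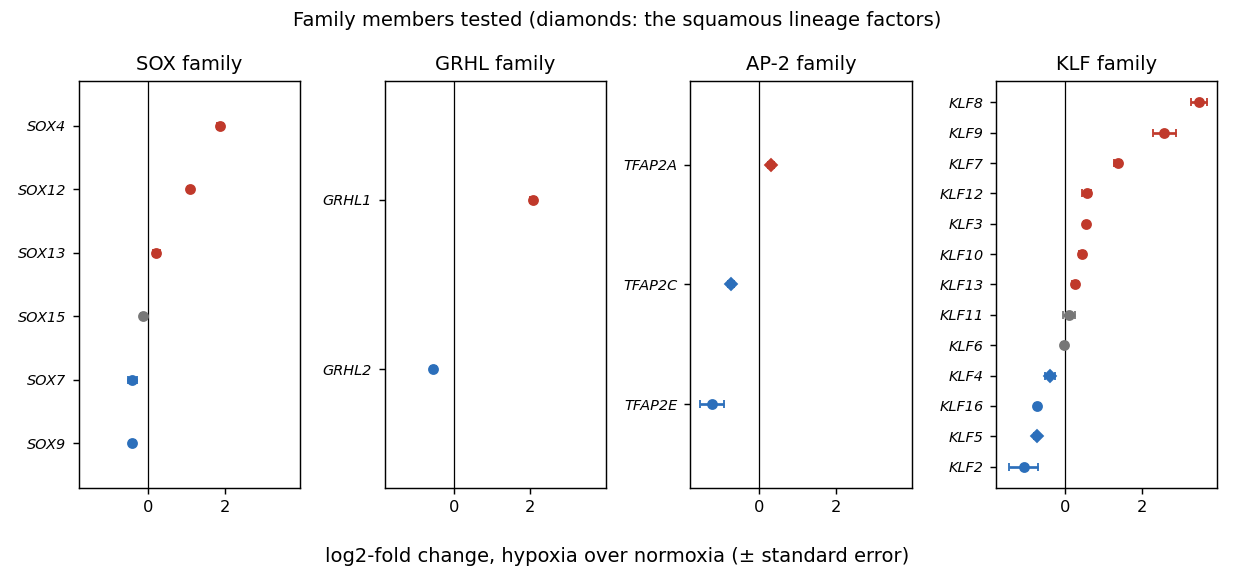
Log2-fold change of hypoxia over normoxia (x axis, with standard error) for the tested members of 4 families, 1 panel per family, diamonds marking the squamous lineage factors and circles their relatives, in red where higher, blue where lower and grey where not called. AP-2 and GRHL genes lie on both sides of 0, and KLF8 at 3.50 lies farthest to the right.

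Other transcriptional regulators of the epidermis formed a list of 30 genes, 22 of them tested. Of these 16 rose and 5 fell, with a median log2-fold change of 0.73 against 0.02 for all genes tested, of which 39.2% rose and 38.5% fell. ELF3, an ETS factor of epithelial differentiation, rose from 28.2 to 435 CPM (log2-fold change 3.95, edgeR adjusted p = 1.46e-13). On the log2 scale BCL6, a transcriptional repressor, rose by 3.10, ZNF385A by 2.83 and ID1, an inhibitor of basic helix-loop-helix factors, by 1.96. The genes that fell included ID3, by 1.11, OVOL2, which guards epithelial identity, by 0.83, TFCP2L1, a grainyhead-like factor, by 0.65 and EHF, an ETS factor near ELF3 in function, by 0.53.

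Genes known as direct targets of p63 numbered 34, of which 30 were tested. Under hypoxia 22 rose and 7 fell, and 1 was not called, where 39.2% of all genes tested rose and 38.5% fell. The median log2-fold change was 0.62, while TP63 itself was not called. The list does not separate targets that p63 raises from targets that it lowers, and the activity of p63 was not tested. Some of the genes that rose passed the filter on low counts only through hypoxia, where they were high. With at least 10 counts in every library, 20 of the list were called higher and 5 lower. Calls also changed among genes still tested, KRT5 losing its call as lower (log2-fold change -0.11, edgeR adjusted p = 0.127). KRT15, a basal keratin, rose from 21.9 to 244 CPM (log2-fold change 3.49), IGFBP3, which binds insulin-like growth factors, by 3.39 on the log2 scale, FAT2, an atypical cadherin, by 2.09 and ITGB4, the hemidesmosomal integrin, by 1.99. Among those that fell, SFN (14-3-3 sigma) fell by 0.80 on that scale, S100A2 by 0.70, ITGA6, the partner of ITGB4, by 0.68 and JAG1, a Notch ligand, by 0.31.

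Suprabasal and barrier genes belong to the stage at which KLF4, GRHL3 and ZNF750 act. Whether those factors control them in these cells was not tested. The list numbered 44, of which 38 were in the table and 23 were tested for a change. Here 12 rose and 7 fell, with a median log2-fold change of 0.35, beside 77.8% called in either direction among all genes tested. GRHL1, described above, is also on this list. SCEL (sciellin), a precursor of the cornified envelope, rose by 3.25 on the log2 scale, PPL (periplakin) from 137 to 387 CPM and ABCA12, the lipid transporter of the barrier, by 1.26 on the log2 scale. ALOXE3 fell by 0.61, KRT10, a suprabasal keratin, by 0.57 and EVPL (envoplakin) by 0.15. The EVPL call was lost without hypoxia replicate 1 or without normoxia replicate 1 (edgeR adjusted p = 0.0735 and 0.117). IVL (involucrin) and TGM1 did not pass, with log2-fold changes of -0.84 and -0.48. Of the 7 calls as lower, 4 were envelope genes of the SPRR family, which passed the filter only through normoxia, where they were high, while SPRR1A and SPRR3 were not tested. The SPRR genes, IVL, TGM1, KRT13 and SBSN were chosen after their values were seen. SPRR2A had 5, 2 and 5 reads in the 3 hypoxia libraries and 195, 170 and 51 in the 3 normoxia libraries. SPRR2D had 10, 2 and 5 against 308, 221 and 100, and SPRR2E 0, 1 and 0 against 97, 59 and 23. SPRR1B had 8, 10 and 0 against 105, 69 and 39. The SPRR2 genes are near-identical copies, so the share of reads of each is uncertain. Some of the genes that rose, KRT13 and SBSN among them, passed the filter only through hypoxia. A minimum of 10 counts per library left these and the SPRR genes untested, and 9 suprabasal genes were then called higher and 2 lower, EVPL having lost its call (log2-fold change -0.08, edgeR adjusted p = 0.252).

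The genes whose profile over the 6 libraries was most like that of each factor, by the root mean square difference of centred log2 CPM among 11569 candidates, were S100A9 for TP63 (0.0652), DGKZ for PITX1 (0.0245), RHOB for KLF4 (0.05), PI4K2B for KLF5 (0.0380), RNF44 for TFAP2A (0.0363), TPRA1 for TFAP2C (0.0223) and TTC21A for ZNF750 (0.266). The fit was closest for TFAP2C and loosest for ZNF750, the factor with the fewest reads among those tested. TPRG1, the neighbour of TP63, rose from 0.729 to 4.57 CPM (log2-fold change 2.63).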

How the data were processed

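RNA libraries were made by the submitters with the SMARTER mRNA-Seq kit from total RNA. The authors deposited whole-number counts of reads per gene, not normalized, and FPKM of the same genes. For 21775 genes, the FPKM could be recomputed from the counts and a whole-number gene length (tolerance 0.01%). The aligner and counting tool are not given in the sources used here. The submitters' processing notes name the mouse builds GRCm38 and mm10 beside human gene symbols, so the build is not settled and no coordinates of the files are given. The labels name SCC25 and a legend of the study names SCC9.

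The samples were grouped by their labels. Counts went into edgeR 4.0.16 under R 4.3.3 (quasi-likelihood F test, condition only, TMM, filterByExpr, Benjamini-Hochberg adjustment at 0.05 over 14255 genes). Log2 CPM used a prior count of 2. The test was first run on simulated data. Alternatives were DESeq2 1.42.0, its size factors, other filters, a replicate block, each library left out, and limma 3.58.1 on log2(FPKM + 1) and log2(FPKM + 0.1) over genes averaging 1 FPKM or more, or over all.

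The factors, gene lists and tests were chosen with earlier results of these data known. Beyond the 9 factors, their relatives, the overlapping genes, the hypoxia genes, the cell type markers, the gene with the nearest profile to each factor and genes said to be chosen after their values were seen, the genes named are the 4 largest changes in each direction per list among those called, whose log2 CPM averages 1 or more and whose conditions do not overlap. Replicate pairs of a condition differed by more than sampling noise (chi-square per gene 5.11 to 10.8), so each library counted once. Samples with the same replicate number did not deviate together (r = 0.0297, -0.0611 and 0.00128). A few genes of the lists count in the totals but are not reported here by name.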

Additional observations from a re-analysis of the deposited data

How the results depend on the processing

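Direction and call held for PITX1, KLF5, TFAP2C and TFAP2A under each alternative run, and for ZNF750 wherever it was tested. Leaving out each library in turn gave log2-fold changes of -0.86 to -0.77 for PITX1, -0.81 to -0.69 for KLF5, -0.78 to -0.73 for TFAP2C, -0.47 to -0.33 for KLF4, 0.23 to 0.39 for TFAP2A, 2.47 to 3.02 for ZNF750 and 0.0034 to 0.35 for TP63, which passed the threshold only without normoxia replicate 3. KLF4 lost its call in limma on log2(FPKM + 1) without a filter (-0.25, adjusted p = 0.0584). Without hypoxia replicate 2 or normoxia replicate 1, GRHL3 passed the filter through normoxia, the condition in which it is high, and 5 factors were called lower. With at least 10 counts in every library, or in limma on log2(FPKM + 1) and log2(FPKM + 0.1) with the filter, 1 factor was called higher, because ZNF750 was not tested. The stricter count filter also left 2 suprabasal genes called lower against 7, and 9 called higher against 12. The replicate number as a block changed no call of a factor and gave 10875 calls among all genes against 11090. All genes called ranged from 9967 to 11920 over the settings run on counts. The difference of the log2 TFAP2A to TFAP2C ratio ranged from 0.982 to 1.154 without each library in turn, and that of KLF5 to KLF4 from -0.48 to -0.24. The stricter filter moved the median log2-fold change of all shared genes by 0.08 the absence of a filter moved it by -0.04, and no other setting run on counts moved it further than -0.018. Depth limits SOX2, GRHL3 and ZNF750, which had at most 58 reads in a library.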

Other observations

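Cofactors and regulators of the protein level of these factors, a list of 24 genes of which 23 were tested, held 7 that rose and 11 that fell under hypoxia, with a median log2-fold change of -0.10, beside 77.8% of all genes tested called in either direction. CITED2, which competes with HIF for p300 and CBP and also binds AP-2 factors, rose from 5.77 to 17.8 CPM (log2-fold change 1.63). KDM6B, a demethylase of histone H3 that opens differentiation genes, rose by 1.10, MDM2, a ubiquitin ligase, by 1.02 and CITED4 by 0.53. The ubiquitin ligase NEDD4L fell by 0.55, the acetyltransferase CREBBP by 0.51, the remodelling ATPase SMARCA4 by 0.49 and FBXW7, which targets KLF5 for degradation, by 0.48. KDM1A, a repressor that works with ZNF750, was at 191 and 205 CPM in hypoxia and normoxia (edgeR adjusted p = 0.0955). Protein levels were not measured.

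KRT6A, a keratin of activated squamous cells, went the other way from most squamous markers, from 16.5 CPM under normoxia to 0.951 CPM under hypoxia (log2-fold change -4.12 by edgeR), while KRT16 and KRT17 rose by 1.69 and 1.06 on the log2 scale. These keratins, and KDM1A, were chosen after their values were seen.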
